A study of Homo sapiens with 6 samples.

Results

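The genes described here encode the subunits of the RNA polymerases I, II and III, taken as every row of the 6 expression tables whose symbol begins with POLR1, POLR2 or POLR3 followed by a letter. They number 31 of 26255 listed gene symbols, 5 of them with a polymerase I symbol, 16 with a polymerase II symbol and 10 with a polymerase III symbol. Poly(A) RNA was sequenced from HCT116, an established line of human colorectal carcinoma, transduced with a degron of ornithine decarboxylase tied to the green fluorescent protein ZsGreen. The degron directs a protein to the proteasome, and in reporters of this kind fluorescence is generally read as slow degradation; the series title speaks of models of cancer stem cells. One group holds 3 libraries of ZsGreen-positive HCT116 cells and the other 3 libraries of ZsGreen-negative HCT116 cells. How the fluorescence was used to part the cells, and whether a group is 1 clone, is not given in the sources used here. The labels do not tell whether each library had a culture of its own, so p-values rest on the variation among these 6 libraries alone, and that variation may be technical. The comparison asks which mRNAs differ in level between the fluorescent cells and the cells without fluorescence.

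RNA polymerase I makes the large ribosomal RNA precursor in the nucleolus, polymerase II makes messenger RNA and many non-coding RNAs, and polymerase III makes transfer RNA, the 5S ribosomal RNA and other short RNAs. Each enzyme has a pair of large subunits that form the active centre and a set of smaller ones. Some of the small subunits belong to all 3 enzymes although they carry a POLR2 symbol, and POLR1C and POLR1D belong to polymerases I and III. Demand for ribosomal and transfer RNA is known to be high in growing and dividing cells.

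Expression was read as FPKM, in which fragments are divided by the length of the transcript and by the total of the library. Levels of different genes can be set side by side only roughly. The annotation behind the lengths was not given, and some genes overlap others. Depth, estimated from the low FPKM values, was 12100000 to 13500000 fragments in the ZsGreen-positive and 9270000 to 9750000 in the ZsGreen-negative libraries. Yet genes listed at 0 numbered 10314, 11624 and 11989 in ZsGreen-positive and 8985 to 9162 in ZsGreen-negative libraries. ZsGreen-positive replicates 2 and 3 stood apart. Among genes estimated at 1 to 8 fragments, the share that stood at exactly 1 was 5.36% and 10% there, beside 25.9% for ZsGreen-positive replicate 1, and ZsGreen-negative libraries gave 27.3% to 33.1%. These shares rest on 112 and 70 genes in ZsGreen-positive replicates 2 and 3. Replicate 1 had 286 such genes and the ZsGreen-negative libraries 417 to 449. The 10 most abundant genes took 45.6% to 47.5% of the summed FPKM in the ZsGreen-positive and 56.9% to 57.4% in the ZsGreen-negative libraries. Of 11 markers of colorectal epithelium, 7 reached a mean of 1 FPKM, among them EPCAM, CDH1 and KRT20. VIL1, CEACAM5, LGALS4 and CDX1 did not, and CDX1 was listed at 0 in every library. The 11 summed to 3152 to 3583 FPKM in ZsGreen-positive and 4246 to 4312 FPKM in ZsGreen-negative libraries, ranges that do not overlap. Summed markers of blood cells (0.471 to 4.13 against 1.38 to 1.78 FPKM), endothelium (0.0638 to 0.171 against 0.0578 to 0.126) and fibroblasts (0.731 to 1.19 against 2.35 to 2.50) were low in ZsGreen-positive and ZsGreen-negative libraries. The fibroblast ranges did not overlap. Of these markers CD68 (blood cells) and COL1A1 (fibroblasts) reached a mean of 1 FPKM, while CD3E, HBB, COL1A2 and DCN were listed at 0 throughout. The part of these library differences in the results below was not tested, and any batch shared with a group cannot be told apart from it. In bulk RNA, a change in the share of cells with a transcript cannot be told apart from a change in its amount per cell.

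Most polymerase subunit mRNAs were more abundant in ZsGreen-positive cells, while both large subunits of polymerase II and POLR1D were less abundant. Of the 31 genes, 28 had a mean of at least 1 FPKM and were tested; the lowest group mean among them was 4.73 FPKM in ZsGreen-positive and 4.86 FPKM in ZsGreen-negative libraries. By limma with Benjamini-Hochberg adjustment over all tested genes, at a threshold of 0.05, 17 of the 28 rose, 3 fell and 8 did not pass. Over all 12213 tested genes 59.4% were called, 29.4% as higher and 30.0% as lower. The tested subunits had a median log2 fold change of 0.39, ZsGreen-positive minus ZsGreen-negative on the log2(FPKM + 1) scale, beside 0.0040 for all tested genes. For 21 of the 28, or 75.0%, the ranges of the groups were separate, which held for 67.6% of all tested genes. With each library rescaled to a sum of 1000000, which moved the median of all tested genes to 0.14, 18 subunits rose and 1 fell, and 62.1% of all called genes were higher in place of 49.5%. With replicate 1 standing alone for the ZsGreen-positive group, 17 rose and 4 fell.

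Among subunits with a polymerase I symbol 4 rose and 1 fell of 5, and the median log2 fold change was 0.60. Of 13 tested with a polymerase II symbol 8 rose, 2 fell and 3 did not pass, with a median of 0.36. Of 10 with a polymerase III symbol 5 rose, 0 fell and 5 did not pass at an adjusted p under 0.05, with a median of 0.39. At an unadjusted p under 0.05, likewise none of these 10 was lower, and POLR3G was the single further one that was higher. Changes of at least 2-fold on this scale were called for 5 of the 28. That share is close to the 17.8% of all tested genes that changed as much in either direction. The 5 were POLR2E, POLR3K, POLR2D, POLR2I and POLR1E, all of them rises.

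**Figure D1:**
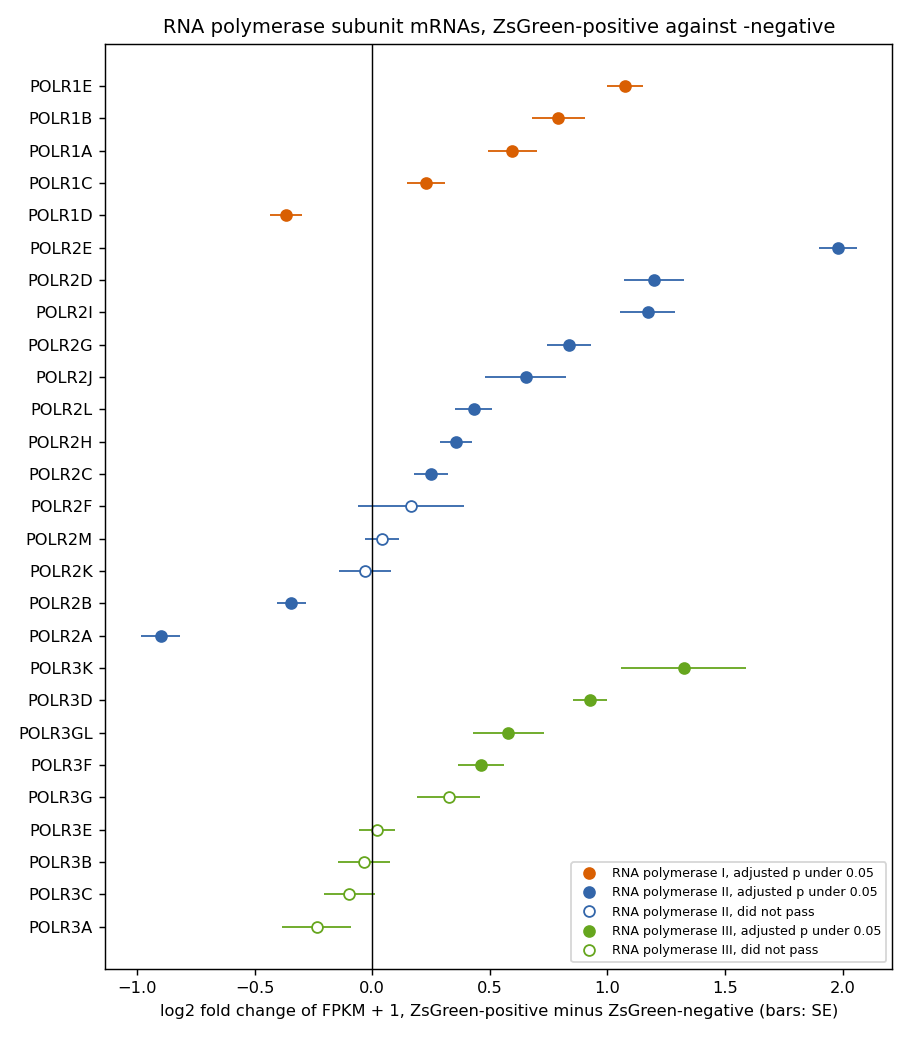
Log2 fold change of FPKM + 1 (x axis, ZsGreen-positive minus ZsGreen-negative) for 27 tested subunit genes, grouped by polymerase, with SE bars and filled points for an adjusted p under 0.05. POLR2E at 1.98 and POLR2A at -0.90 are the ends of the range.

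The genes at those ends, and others on which the account turns, are shown with the sequence around their start, from 250 bases before it to 50 after it, as RefSeq gives it on GRCh38.p14. Such windows were found for 21 of the 31 genes (27 windows, some of 1 gene and overlapping). The first is POLR2E, the largest rise, at chr19:1095326-1095625 on the minus strand, and the next POLR2A, the largest fall, at chr17:7484116-7484415 on the plus strand. POLR3K, the largest rise of polymerase III, lies at chr16:53559-53858 on the minus strand, and POLR1C, shown for its ETS sites, at chr6:43516839-43517138 on the plus strand. In these 4, capitals mark matches on either strand to the GC box GGGCGG, to the box named CCAAT, to the core promoter element TATAAA, to the E-box spelled CACGTG and to the ETS site spelled CCGGAAG. In POLR1C a pair of ETS matches overlap. POLR3E, at chr16:22297159-22297458 on the plus strand, is shown because its first 63 bases, in capitals there, belong to TRL-AAG2-4, a transfer RNA gene, and so to the kind of gene that polymerase III itself transcribes.
POLR2E: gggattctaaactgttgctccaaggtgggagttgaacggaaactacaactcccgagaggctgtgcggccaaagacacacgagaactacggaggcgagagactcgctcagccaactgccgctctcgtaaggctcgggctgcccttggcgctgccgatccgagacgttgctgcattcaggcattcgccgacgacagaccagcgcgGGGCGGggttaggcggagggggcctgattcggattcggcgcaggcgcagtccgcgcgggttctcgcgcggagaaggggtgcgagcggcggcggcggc
POLR2A: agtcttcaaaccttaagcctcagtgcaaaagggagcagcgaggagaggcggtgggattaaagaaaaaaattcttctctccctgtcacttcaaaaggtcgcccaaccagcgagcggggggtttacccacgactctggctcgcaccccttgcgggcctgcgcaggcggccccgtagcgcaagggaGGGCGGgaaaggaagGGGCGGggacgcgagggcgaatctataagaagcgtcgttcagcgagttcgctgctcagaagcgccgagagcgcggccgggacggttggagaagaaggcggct
POLR3K: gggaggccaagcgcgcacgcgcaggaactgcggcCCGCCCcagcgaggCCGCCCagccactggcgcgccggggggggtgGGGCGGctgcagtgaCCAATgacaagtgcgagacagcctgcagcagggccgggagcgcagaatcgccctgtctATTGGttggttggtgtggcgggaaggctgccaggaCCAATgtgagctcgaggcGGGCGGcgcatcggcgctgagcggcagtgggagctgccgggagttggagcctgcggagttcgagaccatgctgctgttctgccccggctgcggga
POLR1C: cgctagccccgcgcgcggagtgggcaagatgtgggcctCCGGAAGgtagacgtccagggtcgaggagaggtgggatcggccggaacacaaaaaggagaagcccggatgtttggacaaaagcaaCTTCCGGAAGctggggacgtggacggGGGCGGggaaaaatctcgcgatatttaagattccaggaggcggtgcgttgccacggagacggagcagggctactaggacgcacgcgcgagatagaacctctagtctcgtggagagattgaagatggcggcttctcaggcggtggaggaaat
POLR3E: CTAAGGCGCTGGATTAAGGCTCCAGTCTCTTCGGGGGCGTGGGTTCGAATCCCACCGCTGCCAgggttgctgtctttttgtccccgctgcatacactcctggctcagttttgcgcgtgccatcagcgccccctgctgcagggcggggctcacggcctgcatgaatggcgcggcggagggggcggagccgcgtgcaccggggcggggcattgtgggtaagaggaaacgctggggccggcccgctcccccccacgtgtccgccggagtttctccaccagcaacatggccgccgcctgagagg
The ETS motif was found in 11 of the 27 windows, or 40.7%, and in 10.3% of all 35116 RefSeq windows. The 9 genes with it were POLR1B, POLR1C, POLR2C, POLR2D, POLR2F, POLR2J2, POLR2M, POLR3A and POLR3C. The GC box was in 77.8% of the subunit windows and in 44.95% of all. CCAAT was in 18.5% against 34.6%, CACGTG in 11.1% against 7.26% and TATAAA in 3.70% against 11.5%. Matches are descriptions of letters in these windows and not binding sites. The shares over all windows take every gene, expressed here or not, whereas most subunit genes were expressed. Shares over the tested genes alone were not computed, so an excess cannot be called particular to the subunits. Both the rising POLR2E and the falling POLR2A held the GC box and none of the other 4 motifs.

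Polymerase I has POLR1A, its largest subunit, and POLR1B, the second largest, at its active centre. POLR1A measured 13.2, 10.7 and 13.2 FPKM in the ZsGreen-positive and 7.83, 7.89 and 7.73 FPKM in the ZsGreen-negative libraries (log2 fold change 0.60 ± 0.10 SE, limma adjusted p = 0.00205). POLR1B measured 15.0, 19.4 and 17.0 FPKM in ZsGreen-positive and 9.10, 10.4 and 8.91 FPKM in ZsGreen-negative libraries (0.79 ± 0.11 SE, limma adjusted p = 0.000747). Every ZsGreen-positive library was above every ZsGreen-negative one for both genes. POLR1E, known as PAF53, is a polymerase I subunit that acts in initiation and elongation. It stood at 57.5, 51.2 and 52.9 FPKM in ZsGreen-positive and 25.4, 26.3 and 23.4 FPKM in ZsGreen-negative libraries, a 2.15-fold higher mean (log2 fold change 1.08 ± 0.076 SE, limma adjusted p = 2.32e-05).

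POLR1C and POLR1D pair with each other in the core on which polymerases I and III are assembled, and they moved in opposite directions. POLR1D, the most abundant of the 28, fell to 151, 169 and 149 FPKM in ZsGreen-positive libraries, against 193, 201 and 211 FPKM in ZsGreen-negative libraries (log2 fold change -0.37 ± 0.069 SE, limma adjusted p = 0.00280). The groups did not overlap, but with the libraries rescaled to a sum of 1000000 the value was -0.19 (adjusted p = 0.173), and it was -0.66 under quantile normalisation. POLR1C measured 47.3, 48.9 and 56.9 FPKM in ZsGreen-positive and 42.2, 43.1 and 44.5 FPKM in ZsGreen-negative libraries (0.23 ± 0.082 SE, limma adjusted p = 0.0435). That call was the closest to the threshold, and 9 of 16 alternatives ended it (adjusted p 0.0132 to 0.135 over all of them). Leaving out ZsGreen-positive replicate 3 gave 0.15 (adjusted p = 0.0638), and leaving out ZsGreen-negative replicates 1, 2 or 3 gave 0.21, 0.23 and 0.25 (adjusted p = 0.135, 0.119 and 0.0896). With replicate 1 standing alone for the ZsGreen-positive group the log2 fold change of POLR1C was 0.13. Both genes overlap another gene in RefSeq that was called in the same direction. XPO5, beside POLR1C, averaged 16.1 FPKM in ZsGreen-positive and 13.5 FPKM in ZsGreen-negative libraries, and LNX2, beside POLR1D, averaged 5.31 FPKM in ZsGreen-positive and 9.15 FPKM in ZsGreen-negative libraries (limma adjusted p = 0.0339 and 0.00104). Their part in the counts was not tested.

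Polymerase II carries its active centre between POLR2A, whose long tail of repeats is phosphorylated during the transcription cycle, and POLR2B. Both fell. POLR2A measured 6.18, 5.92 and 5.67 FPKM in ZsGreen-positive and 12.0, 11.9 and 11.9 FPKM in ZsGreen-negative libraries, so that its mean was 2.01-fold lower in ZsGreen-positive cells (log2 fold change -0.90 ± 0.083 SE, limma adjusted p = 8.44e-05). Both groups were tight and far apart. POLR2B measured 81.0, 89.0 and 91.0 FPKM in ZsGreen-positive and 110, 111 and 110 FPKM in ZsGreen-negative libraries (-0.34 ± 0.062 SE, limma adjusted p = 0.00225). Rescaled to a sum of 1000000, POLR2B was at -0.17 (adjusted p = 0.203) while POLR2A kept its call. The level of POLR2B was 13.1, 15.0 and 16.0 times that of POLR2A in the ZsGreen-positive and 9.18, 9.38 and 9.30 times in the ZsGreen-negative libraries, a description of a pair chosen after its values were seen.

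The 5 other core subunits particular to polymerase II rose. POLR2D and POLR2G form the stalk, which holds the emerging RNA. POLR2D measured 24.0, 22.8 and 32.1 FPKM in ZsGreen-positive and 10.4, 10.9 and 11 FPKM in ZsGreen-negative libraries (log2 fold change 1.20 ± 0.13 SE, limma adjusted p = 0.000181). POLR2G measured 111, 105 and 131 FPKM in ZsGreen-positive and 60.9, 63.7 and 68.3 FPKM in ZsGreen-negative libraries (0.84 ± 0.093 SE, limma adjusted p = 0.000217). Both stalk genes rose without overlap between groups, and 67.6% of all tested genes likewise had separate groups. POLR2I, a small subunit that bears on start site choice and fidelity, measured 34.4, 26.7 and 34.1 FPKM in ZsGreen-positive and 14.9, 12.9 and 12.7 FPKM in ZsGreen-negative libraries (1.17 ± 0.12 SE, limma adjusted p = 0.000126).

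POLR2C and POLR2J are the polymerase II counterparts of POLR1C and POLR1D. POLR2C measured 48.2, 50.4 and 43.9 FPKM in ZsGreen-positive and 38.3, 41.3 and 39.7 FPKM in ZsGreen-negative libraries (log2 fold change 0.25 ± 0.072 SE, limma adjusted p = 0.0201). Its call was lost under quantile normalisation (0.20, adjusted p = 0.0684) and without ZsGreen-negative replicate 1 (0.22, adjusted p = 0.0869) or replicate 3 (0.25, adjusted p = 0.0706). POLR2J measured 24.3, 14.3 and 20.3 FPKM in ZsGreen-positive and 11.7, 12.0 and 11.9 FPKM in ZsGreen-negative libraries (0.65 ± 0.17 SE, limma adjusted p = 0.0139). ZsGreen-positive replicate 2 was close to the ZsGreen-negative libraries, and with replicate 1 standing alone for the ZsGreen-positive group the value was 0.98. POLR2J overlaps LRWD1, whose mean was 16.6 FPKM in ZsGreen-positive and 6.89 FPKM in ZsGreen-negative libraries. The treatment of strand in the authors' counting is not given in the sources used here, so reads of the pair cannot be told apart.

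POLR2J2, POLR2J3 and POLR2J4 were not tested because of their low means. They are further copies of POLR2J, the last of them a transcribed pseudogene in RefSeq, and reads may be split among near-identical copies, so their values are uncertain. POLR2J2 was listed at 0.208, 0.597 and 0 FPKM in ZsGreen-positive and 0.614, 0.252 and 0.09996 FPKM in ZsGreen-negative libraries. POLR2J3 was listed at 0.963, 0.293 and 0 FPKM in ZsGreen-positive and 0.560, 0.785 and 0.706 FPKM in ZsGreen-negative libraries. The pseudogene POLR2J4 was at 1.03, 0.619 and 1.53 FPKM against 1.06, 0.868 and 0.730 FPKM in ZsGreen-negative libraries. In all 3 the groups overlapped. POLR2M, which yields a factor known as Gdown1 that binds polymerase II, did not pass (18.7 ± 1.09 FPKM in ZsGreen-positive and 18.1 ± 0.372 FPKM in ZsGreen-negative libraries, SD, n = 3 each). POLR2M overlaps GCOM1, a gene with joined transcripts.

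Of the 5 subunits common to the 3 enzymes, POLR2E, POLR2H and POLR2L rose and POLR2F and POLR2K did not pass. POLR2E forms part of the jaw that grips the DNA ahead of the active centre. It had the largest change among the members, 44.0, 41.8 and 47.7 FPKM in ZsGreen-positive and 11.1, 10.6 and 9.90 FPKM in ZsGreen-negative libraries, a 4.22-fold higher mean (log2 fold change 1.98 ± 0.081 SE, limma adjusted p = 2.48e-06). The level of POLR2E was 7.05 to 8.41 times that of POLR2A in ZsGreen-positive and 0.834 to 0.928 times in ZsGreen-negative libraries, a description of a pair picked for its opposite changes. POLR2E overlaps the gene listed as HMHA1 (now ARHGAP45), which measured 5.27 ± 1.07 FPKM in ZsGreen-positive and 6.57 ± 0.0799 FPKM in ZsGreen-negative libraries (SD, n = 3 each) and did not pass.

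The other common subunits changed less. POLR2H measured 91.7, 85.7 and 98.0 FPKM in ZsGreen-positive and 68.3, 72.4 and 73.3 FPKM in ZsGreen-negative libraries (log2 fold change 0.36 ± 0.068 SE, limma adjusted p = 0.00303). POLR2L measured 153, 132 and 129 FPKM in ZsGreen-positive and 97.5, 103 and 105 FPKM in ZsGreen-negative libraries (0.43 ± 0.078 SE, limma adjusted p = 0.00242). Under quantile normalisation both kept their calls at lower values, 0.24 for POLR2H and 0.23 for POLR2L. POLR2F ranged from 12.5 to 23.2 FPKM in ZsGreen-positive and from 13.0 to 18.5 FPKM in ZsGreen-negative libraries. POLR2K, a small zinc-binding subunit, ranged from 60.1 to 82.0 FPKM in ZsGreen-positive and from 70.5 to 75.6 FPKM in ZsGreen-negative libraries (log2 fold change -0.029 ± 0.11 SE, limma adjusted p = 0.834). The ZsGreen-positive libraries enclosed the ZsGreen-negative range for both of these genes.

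The large subunits of polymerase III did not pass the test. POLR3A, the largest, measured 5.33, 5.72 and 8.07 FPKM in ZsGreen-positive and 7.69, 7.42 and 7.61 FPKM in ZsGreen-negative libraries (log2 fold change -0.24 ± 0.15 SE, limma adjusted p = 0.205). ZsGreen-positive replicate 3 alone lay above the ZsGreen-negative libraries. Without replicate 3 the value was -0.39 and passed (limma adjusted p = 0.00879). With replicate 1 standing alone for the ZsGreen-positive group it was -0.44, where the spread of that group cannot be measured. The value was -0.13 (adjusted p = 0.439) without ZsGreen-positive replicate 1 and -0.070 (adjusted p = 0.719) after rescaling to a sum of 1000000. POLR3B, the second largest, measured 4.89, 4.22 and 5.07 FPKM in ZsGreen-positive and 4.72, 5.18 and 4.68 FPKM in ZsGreen-negative libraries (-0.036 ± 0.11 SE, limma adjusted p = 0.798). Whether the large subunits of the 3 enzymes differ in response was not tested.

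Beside the core, polymerase III has a trimer of POLR3C, POLR3F and either POLR3G or POLR3GL that opens the promoter. POLR3F rose, with 11.1, 9.80 and 9.22 FPKM in ZsGreen-positive and 6.84, 7.20 and 6.94 FPKM in ZsGreen-negative libraries (log2 fold change 0.46 ± 0.097 SE, limma adjusted p = 0.00479). POLR3C measured 7.55, 6.77 and 5.93 FPKM in ZsGreen-positive and 7.07, 7.50 and 7.23 FPKM in ZsGreen-negative libraries, which overlapped (-0.098 ± 0.11 SE, limma adjusted p = 0.463).

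POLR3G and POLR3GL are alternative partners in that trimer, the one known for its expression in stem cells and tumour cells and the other found in most tissues. POLR3G measured 12.3, 11.3 and 16.2 FPKM in ZsGreen-positive and 9.80, 10.02 and 11.04 FPKM in ZsGreen-negative libraries. The groups did not overlap, yet the test was missed (log2 fold change 0.32 ± 0.14 SE, limma adjusted p = 0.0732). It was passed without ZsGreen-positive replicate 2 (0.42, adjusted p = 0.0303), after rescaling to a sum of 1000000 (0.46, adjusted p = 0.0190) and with the replicate number as a block (0.32, adjusted p = 0.0497). It was missed under the other 13 alternatives, among them without ZsGreen-positive replicate 3 (0.18, adjusted p = 0.121) and without each ZsGreen-negative library in turn (adjusted p = 0.105 to 0.189). POLR3GL measured 15.6, 11.7 and 15.7 FPKM in ZsGreen-positive and 7.96, 10.96 and 8.80 FPKM in ZsGreen-negative libraries (0.58 ± 0.15 SE, limma adjusted p = 0.0133). Without ZsGreen-negative replicate 1 it missed the threshold (0.49, adjusted p = 0.0524). The level of POLR3G was 0.791, 0.970 and 1.03 times that of POLR3GL in ZsGreen-positive and 1.23, 0.914 and 1.255 times in ZsGreen-negative libraries. These ratios overlapped, with a difference of -0.25 on the log2 scale (exact permutation test, two-sided, p = 0.3, where 3 against 3 libraries cannot go below 0.1). It ran from -0.39 to -0.15 when each library was left out in turn, the extremes without ZsGreen-negative replicate 2 and without ZsGreen-positive replicate 1.

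POLR3D and POLR3E form a pair that acts in initiation and termination, and only POLR3D passed the test. POLR3D measured 23.0, 21.9 and 23.4 FPKM in ZsGreen-positive and 11.3, 11.3 and 12.0 FPKM in ZsGreen-negative libraries (log2 fold change 0.93 ± 0.072 SE, limma adjusted p = 3.73e-05). POLR3E, whose start window holds the transfer RNA bases shown above, measured 16.9, 16.2 and 15.4 FPKM in ZsGreen-positive and 16.4, 16.2 and 15.1 FPKM in ZsGreen-negative libraries (0.021 ± 0.077 SE, limma adjusted p = 0.828). The libraries of POLR3E were interleaved, while those of POLR3D were far apart.

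POLR3K, a small subunit that aids RNA cleavage and termination, had the largest change of polymerase III. It measured 26.2, 13.3 and 11.7 FPKM in ZsGreen-positive and 6.09, 5.64 and 5.68 FPKM in ZsGreen-negative libraries (log2 fold change 1.32 ± 0.27 SE, limma adjusted p = 0.00389). Every ZsGreen-positive library exceeded every ZsGreen-negative one, but replicate 1 was far above the other two. Without ZsGreen-positive replicate 1 the log2 fold change was 0.99 and passed (limma adjusted p = 0.000317). It was 2.00 with replicate 1 as the only ZsGreen-positive library, where the spread of that group cannot be measured.

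Listed FPKM levels within an enzyme were far from equal, although each subunit enters it in a fixed number of copies. The limits of FPKM between genes, given above, apply to these levels and to the ratios of subunits. Means of polymerase I symbols ran from 12.4 FPKM (POLR1A) to 156 FPKM (POLR1D) in ZsGreen-positive and from 7.82 to 202 FPKM (the same genes) in ZsGreen-negative libraries. Those of tested polymerase II symbols ran from 5.93 FPKM (POLR2A) to 138 FPKM (POLR2L) in ZsGreen-positive and from 10.5 FPKM (POLR2E) to 111 FPKM (POLR2B) in ZsGreen-negative libraries. Polymerase III symbols kept to a narrower and lower range. It ran from 4.73 FPKM (POLR3B) to 22.8 FPKM (POLR3D) in ZsGreen-positive libraries. In ZsGreen-negative libraries it ran from 4.86 FPKM (POLR3B) to 15.9 FPKM (POLR3E). That range is of the symbols and not of the enzyme, which also holds POLR1C, POLR1D and the common subunits with a POLR2 symbol. Across the 28 genes, which share libraries and are not replicates, the order of mean levels in the groups had a Spearman correlation of 0.86. The 31 genes summed to 1169, 1079 and 1160 FPKM in ZsGreen-positive and 904, 941 and 946 FPKM in ZsGreen-negative libraries. Transcript GC content had a Spearman correlation of 0.25 with the log2 fold change over the 28 genes and of 0.30 over the tested genes with a value, a description across genes. For transcript length the correlations were -0.11 and -0.28. Both traits were read from the longest GENCODE coding transcript, which for POLR2A was only 2083 nt. The part of GC content or length in the fold changes was not tested.

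**Figure D2:**
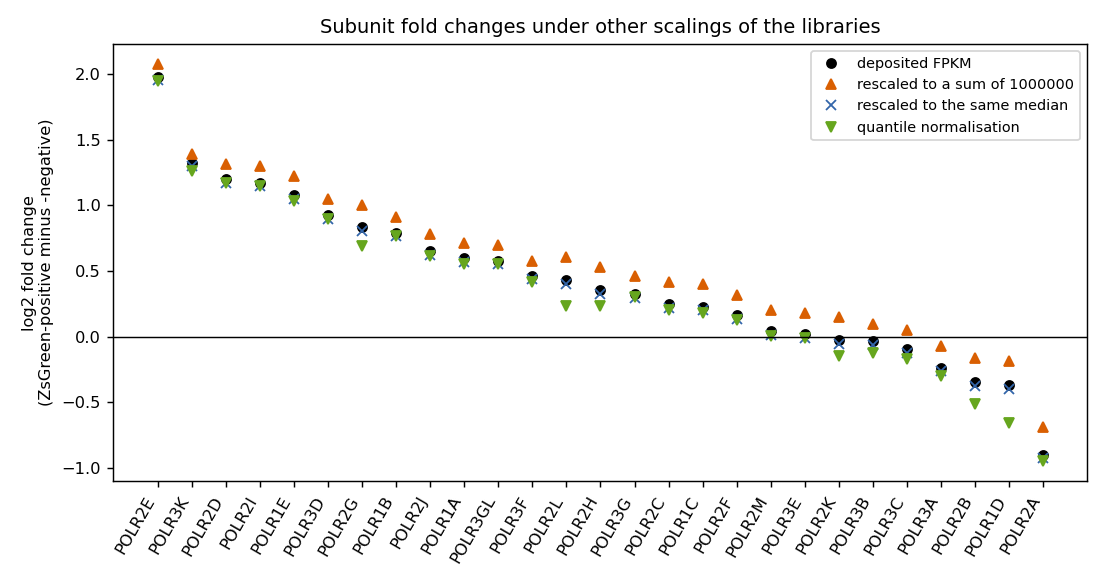
Log2 fold change (y axis, ZsGreen-positive minus ZsGreen-negative) of 27 subunit genes with the deposited FPKM and under 3 other scalings. The called genes shown keep their sign under each of these scalings; POLR2E lies between 1.95 and 2.08 under all 4, and values near 0, such as those of POLR2K and POLR3E, change sign.

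Subunits listed under older symbols were read from a list of 4 further genes. Of these 1 rose (25%, beside 29.4% of all tested genes), 1 fell (25%, beside 30.0%) and 2 did not pass. The median was 0.11. In this list 2 rose after rescaling to a sum of 1000000 or with ZsGreen-positive replicate 1 alone, and 0 with a filter at 5 FPKM, which CD3EAP does not pass. CD3EAP (POLR1G), the polymerase I partner of POLR1E, rose to 4.12, 4.08 and 3.98 FPKM in ZsGreen-positive, against 2.07, 3.00 and 2.36 FPKM in ZsGreen-negative libraries (log2 fold change 0.55 ± 0.14 SE, limma adjusted p = 0.0111). The call was lost without ZsGreen-negative replicate 1 (0.47, adjusted p = 0.0557), and the value was 0.28 with a pseudocount of 5. TWISTNB (POLR1F), of the polymerase I stalk, fell to 14.2, 16.1 and 14.5 FPKM in ZsGreen-positive, against 21.4, 22.2 and 21.1 FPKM in ZsGreen-negative libraries (-0.50 ± 0.077 SE, limma adjusted p = 0.00106). Rescaled to a sum of 1000000 it was at -0.32 (adjusted p = 0.0468). ZNRD1 (POLR1H) and CRCP did not pass (37.5 and 17.7 FPKM on average in ZsGreen-positive, 30.5 and 18.4 FPKM in ZsGreen-negative libraries).

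Of 8 initiation and termination factors of polymerase I, 6 rose (75.0%, beside 29.4% of all tested genes), 1 fell (12.5%, beside 30.0%) and 1 did not pass, with a median log2 fold change of 0.64. After rescaling to a sum of 1000000, 0 fell. TAF1A and TAF1C belong to the complex that selects the ribosomal RNA promoter. TAF1A averaged 14.7 ± 2.95 FPKM in ZsGreen-positive and 6.0 ± 0.425 FPKM in ZsGreen-negative libraries (SD, n = 3 each; log2 fold change 1.15, limma adjusted p = 0.000353). TAF1C averaged 6.70 ± 1.56 and 3.15 ± 0.268 FPKM in ZsGreen-positive and ZsGreen-negative libraries (0.87, limma adjusted p = 0.00256), and its value was 0.51 with a pseudocount of 5. TCOF1, which encodes the nucleolar protein treacle, averaged 14.0 ± 1.82 FPKM in ZsGreen-positive and 5.79 ± 0.214 FPKM in ZsGreen-negative libraries (1.13, limma adjusted p = 0.000120). The member that fell was TAF1D, at 46.8 FPKM in ZsGreen-positive and 60.9 FPKM in ZsGreen-negative libraries on average (log2 fold change -0.37, limma adjusted p = 0.00357).

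Of 18 general initiation factors of polymerase II, 7 rose (38.9%, beside 29.4% of all tested genes), 4 fell (22.2%, beside 30.0%) and 7 did not pass, with a median of 0.0092. Without ZsGreen-negative replicate 1 or 2, only 4 rose. ERCC2, a helicase of the factor TFIIH, averaged 15.5 ± 2.17 FPKM in ZsGreen-positive and 6.10 ± 0.336 FPKM in ZsGreen-negative libraries (SD, n = 3 each; log2 fold change 1.21, limma adjusted p = 0.000113). GTF2F1, a subunit of TFIIF, averaged 41.2 ± 3.47 FPKM in ZsGreen-positive and 22.2 ± 0.524 FPKM in ZsGreen-negative libraries (0.86, limma adjusted p = 8.22e-05). GTF2B, the factor TFIIB that joins polymerase II to the promoter, averaged 36.7 ± 3.13 FPKM in ZsGreen-positive and 74.6 ± 3.10 FPKM in ZsGreen-negative libraries (-1.01, limma adjusted p = 3.64e-05). Of 22 pausing and elongation factors, 8 rose (36.4%, beside 29.4% of all tested genes), 6 fell (27.3%, beside 30.0%) and 8 did not pass, with a median of -0.032. NELFB, of the pausing complex NELF, averaged 38.8 ± 2.61 FPKM in ZsGreen-positive and 15.8 ± 0.720 FPKM in ZsGreen-negative libraries (1.24, limma adjusted p = 1.32e-05). ELL2, an elongation factor, averaged 3.86 ± 0.204 FPKM in ZsGreen-positive and 17.6 ± 0.160 FPKM in ZsGreen-negative libraries, a 4.55-fold lower level in ZsGreen-positive cells (-1.93, limma adjusted p = 3.02e-06). TCEA1, the factor TFIIS that restarts halted polymerase, averaged 80.2 ± 6.19 FPKM in ZsGreen-positive and 149 ± 2.38 FPKM in ZsGreen-negative libraries (-0.88, limma adjusted p = 3.47e-05).

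Of 17 factors of polymerase III, 5 rose (29.4%, the same share as over all tested genes), 1 fell (5.88%, beside 30.0%) and 11 did not pass, with a median of 0.12. With replicate 1 standing alone for the ZsGreen-positive group 9 rose. The count that fell was 2 without ZsGreen-positive replicate 1, with the replicate block and under quantile or median scaling. BRF2 and BDP1 are parts of forms of TFIIIB, which places polymerase III at its start sites, and they moved in opposite directions. BRF2 measured 13.5, 8.67 and 8.71 FPKM in ZsGreen-positive and 3.64, 4.37 and 4.08 FPKM in ZsGreen-negative libraries (log2 fold change 1.14 ± 0.18 SE, limma adjusted p = 0.00104), and 0.75 with a pseudocount of 5. BDP1 measured 8.84, 10.7 and 10.6 FPKM in ZsGreen-positive and 21.0, 20.8 and 19.9 FPKM in ZsGreen-negative libraries (-0.97 ± 0.094 SE, limma adjusted p = 0.000107). GTF3C5, a subunit of TFIIIC, averaged 28.3 FPKM in ZsGreen-positive and 15.8 FPKM in ZsGreen-negative libraries (0.80, limma adjusted p = 0.000268). MAF1, the repressor of polymerase III, did not pass (77.7 FPKM in ZsGreen-positive and 78.9 FPKM in ZsGreen-negative libraries on average, adjusted p = 0.795).

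Factors that assemble polymerases and bring them to the nucleus gave 7 higher, 0 lower and 6 not passing of 13 by limma, with a median of 0.44, and none was lower at an unadjusted p under 0.05. The higher share was 53.8%, beside 29.4% of all tested genes, of which 30.0% were lower. When replicate 1 alone stood for the ZsGreen-positive group, 1 was called lower. RUVBL1 and RUVBL2, a pair of ATPases of the assembly chaperone R2TP, both rose. RUVBL1 measured 119, 130 and 125 FPKM in ZsGreen-positive and 50.8, 56.2 and 52.2 FPKM in ZsGreen-negative libraries (log2 fold change 1.21 ± 0.065 SE, limma adjusted p = 6.91e-06). RUVBL2 measured 191, 192 and 193 FPKM in ZsGreen-positive and 72.7, 75.4 and 76.8 FPKM in ZsGreen-negative libraries (1.35 ± 0.051 SE, limma adjusted p = 1.79e-06). PIH1D1, which joins R2TP to its clients, averaged 74.7 ± 6.21 FPKM in ZsGreen-positive and 34.2 ± 1.88 FPKM in ZsGreen-negative libraries (SD, n = 3 each; 1.10, limma adjusted p = 2.75e-05).

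Mitochondria use a polymerase of their own, POLRMT, unrelated to the 3 nuclear enzymes. POLRMT measured 20.3, 19.2 and 24.9 FPKM in ZsGreen-positive and 7.16, 7.37 and 7.03 FPKM in ZsGreen-negative libraries, a 2.98-fold higher mean (log2 fold change 1.45 ± 0.11 SE, limma adjusted p = 3.2e-05). TFB1M, a mitochondrial RNA methyltransferase related to a transcription factor, averaged 8.16 FPKM in ZsGreen-positive and 5.59 FPKM in ZsGreen-negative libraries (0.46, limma adjusted p = 0.0160). That call was lost without ZsGreen-negative replicate 1 (0.48, adjusted p = 0.0501) or replicate 3 (0.43, adjusted p = 0.0649), and the value was 0.70 with replicate 1 standing alone for the ZsGreen-positive group and 0.31 with a pseudocount of 5. TFAM and TFB2M did not pass. By limma 2 of the 4 mitochondrial genes rose (50%, beside 29.4% of all tested genes) and 0 fell (beside 30.0%). The count that fell was 1 with a filter at 5 FPKM, under quantile or median scaling, without ZsGreen-positive replicate 3 and with ZsGreen-positive replicate 1 alone. At an unadjusted p under 0.05, 1 was lower, TFB2M at 14.3 FPKM in ZsGreen-positive and 18.1 FPKM in ZsGreen-negative libraries on average.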

How the data were processed

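The authors deposited 1 table of FPKM for each library. The submitters' processing notes name Cuffdiff 2.2.1, TopHat2 2.1.1, SAMtools 0.1.18, Bowtie2 2.2.8 and hg19; the annotation, scaling and strand handling were not given in the sources used here. Since FPKM has a library total as its denominator, abundant RNAs can move every other value. Per the labels' protocols, a stranded mRNA kit was used. limma 3.58.1 (R 4.3.3, trended eBayes, two-sided) was fitted on log2(FPKM + 1), which understates changes of low genes, over 12213 genes with a mean of at least 1 FPKM. P-values were Benjamini-Hochberg adjusted and called under 0.05. The steps were run on simulated data with few changed genes and independent noise. These data differ in that 59.4% of genes were called, so that run checks the code and not the calls. The members, lists and motifs were chosen with earlier results of these data known. Of the members, 1 tested gene enters the counts but is not reported here. Named genes are all other members and, of each list, up to 3 passing genes with the largest absolute change; TAF1D, MAF1, CRCP, ZNRD1, TFAM, TFB2M and overlapping neighbours were named after their values were seen. Depth came from the steps of FPKM times length in 2137 genes having 1 GENCODE transcript of at least 1000 nt (replicates 2 and 3 tied to replicate 1 at ratios of 0.8 to 1.25; whole within 0.3 fragments), and it tells of counting error only. The ratio of POLR3G to POLR3GL was tested by exact permutation (SciPy 1.17.1). Alternatives were other pseudocounts (0.1 and 5), filters, scalings, no trend, a replicate block and left-out libraries. Where replicate 1 stood alone for the ZsGreen-positive group, the spread came from the ZsGreen-negative libraries only. Calls and counts of that setting ignore the spread among ZsGreen-positive libraries.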

Additional observations from a re-analysis of the deposited data

How the results depend on the processing

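Of the 20 subunit genes called by limma, 15 kept their call and direction under all 16 alternatives run, and the other 5, POLR1C, POLR1D, POLR2B, POLR2C and POLR3GL, lost it under at least 1 but kept their direction. The count of subunits that rose was 14 to 18 with each library left out in turn, and the count that fell was 3 to 4. Rescaling to a sum of 1000000 left 1 that fell, POLR2A. The replicate block gave 18 higher and 3 lower, and 6915 called genes in place of 7258. Same-numbered libraries of the groups did not deviate together (correlations of -0.021, -0.030 and -0.021). With 3 libraries per group this cannot tell whether the replicate numbers mark pairs. With signs flipped within replicate numbers, the exact test of the ratio of POLR3G to POLR3GL gave p = 0.5. So few pairs cannot bring this p under 0.05. Among subunits that did not pass, values near 0 changed sign, and the cause was not tested. Under rescaling to a sum of 1000000 POLR2K was at 0.15, POLR3B at 0.10 and POLR3C at 0.054. POLR3E was at -0.0088 under quantile normalisation and -0.0075 after rescaling to the same median. When replicate 1 stood alone for the ZsGreen-positive group, and was assumed to vary like the other group, POLR2K was at 0.17 (adjusted p = 0.0404), POLR3B at 0.0076 and POLR3C at 0.050. With each library left out in turn, POLR2F ran from -0.014 to 0.41, POLR2K from -0.13 to 0.092, POLR2M from -0.0038 to 0.066, POLR3B from -0.079 to 0.029 and POLR3E from -0.014 to 0.053. Overlap with another RefSeq gene, found for 19 of the 28 tested subunits, and fragments that are not independent molecules limit single values. Neighbour levels are given only for XPO5, LNX2, LRWD1 and HMHA1. The limit holds as well for the other subunits with an overlap, among them POLR2B, POLR2C, POLR2I and POLR3G.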
